A study of Rattus norvegicus with 15 samples.

Results

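miR-210 was followed through both of its mature products, miR-210-3p and miR-210-5p, which are 2 of the 600 miRNA names counted in the kidney cortex of PCK rats. Both were taken by name, with no measured value in the rule but with earlier results of these data known. Both passed the filter on low counts that left 519 names for testing. All libraries came from the PCK strain (PCK/CrljCrlPkhd1pck/CRL), whose Pkhd1 mutation models human autosomal recessive polycystic kidney disease. All 3 diet groups carried it, and no library comes from a rat without it. From 6 weeks of age the rats ate Dyets chow with 0.01%, 0.4% or 4% NaCl for 8 weeks, with no other treatment, and 5 small RNA libraries are listed for each diet. The labels' protocol speaks of RNA pooled from 2 to 3 animals and of 2 such pools for a condition. How these relate to the 5 libraries of a diet is not stated, so p-values measure the spread between these libraries, which may be in part technical.

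miRNAs are short RNAs that pair through their seed, bases 2 to 8 from the 5′ end, with target mRNAs and lower their output. miR-210 is the miRNA most widely reported to rise when oxygen is low, because hypoxia-inducible factors (HIF) act on its gene. Its known targets include the iron-sulfur cluster scaffold ISCU, through which it restrains mitochondrial respiration. The 3p arm is generally regarded as the functional strand and the 5p arm as its passenger.

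The 2 arms are shown first because what was counted under each name depends on these letters. Sequences are from RefSeq (GRCr8), written 5′ to 3′, with the seed in capitals, and both members matched the table.
rno-miR-210-3p: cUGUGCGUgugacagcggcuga
rno-miR-210-5p: aGCCACUGcccacagcacacug
The 3p arm lies at chr1:205755946-205755967 and the 5p arm at chr1:205755984-205756005, both on the minus strand and both 22 bases long. The Mir210 hairpin, at chr1:205755923-205756032, is shown with the 2 arms in capitals to place them on the precursor.
Mir210 hairpin: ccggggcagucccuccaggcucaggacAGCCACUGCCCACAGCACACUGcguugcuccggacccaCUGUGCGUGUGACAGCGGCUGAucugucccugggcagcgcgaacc
RNAfold predicted a minimum free energy of -46.5 kcal per mol for this hairpin, with 16 base pairs between the arms. The hairpin lies within the span of the long non-coding RNA gene LOC102553043. No other rat mature miRNA of the RefSeq table shared the 7-base seed of either arm, and the count table held no other-species name of miR-210.

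A second miRNA gene, Mir3574, is annotated over the same bases on the plus strand, at chr1:205755917-205756034. Its mature product is the exact reverse complement of miR-210-3p over all 22 bases, and it has a row of its own in the count table. It is printed because its counts and those of miR-210-3p moved together.
rno-miR-3574: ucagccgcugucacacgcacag
miR-3574 is not a member and was added after its sequence and values had been seen. No source used here says whether the authors' counting kept the strand of a read. The values of both names are therefore uncertain as separate miRNAs.

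Libraries held 5.77 to 7.83 M reads on 0.01% NaCl, 4.79 to 7.38 M on 0.4% and 4.17 to 5.42 M on 4%. Levels are given below as scaled CPM, reads for each M reads of a TMM-scaled library size. The labelled tissue was checked against 5 miRNAs of kidney tubule (miR-192-5p, miR-194-5p, miR-204-5p, miR-200a-3p and miR-200b-3p). All 5 had reads in every library, and their summed level ran from 39866 to 81823.5 scaled CPM. The summed level of 4 red blood cell miRNAs ran from 295 to 818 scaled CPM, of 4 leukocyte miRNAs from 1521 to 4345, and of 2 endothelial miRNAs from 9554 to 12981. That of 3 smooth muscle and fibroblast miRNAs ran from 20625 to 74982. On 0.01% NaCl its median was 48118 scaled CPM, beside 46967 for tubule. These 2 sums are mostly miR-143-3p and miR-192-5p, with means of 34062 and 51514 scaled CPM over all libraries. They do not measure the shares of cells. In such bulk tissue, fewer cells that hold a miRNA and less of it per cell cannot be told apart.

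miR-210-3p was an expressed but not an abundant miRNA in this cortex, and its level did not differ between the diets beyond the spread of the libraries. It was counted 4033 times over the 15 libraries, from 174 to 398 reads in each, and it ranked from 158th to 189th by reads among the 445 rat names. On 0.01% NaCl the 5 libraries held 51.9, 36.0, 37.3, 41.4 and 56.3 scaled CPM. On 0.4% NaCl they held 72.1, 46.4, 49.8, 48.6 and 38.7 scaled CPM. On 4% NaCl they held 35.9, 47.2, 62.3, 37.9 and 47.0 scaled CPM. The highest library belonged to the 0.4% diet and the lowest to the 4% diet, and the ranges of all 3 diets overlapped.

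The order of the mean levels of miR-210-3p was 0.4%, 4% and 0.01% NaCl, with 51.1 ± 12.5, 46.1 ± 10.5 and 44.6 ± 9.04 scaled CPM (SD, n = 5 each). No neighbours in that order differed beyond their spread. The coefficient of variation within a diet was 20.3% to 24.4%, where counting error alone gives 5.89% to 6.59%. The spread of miR-210-3p between libraries of a diet was thus larger than its counting error.

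**Figure D1:**
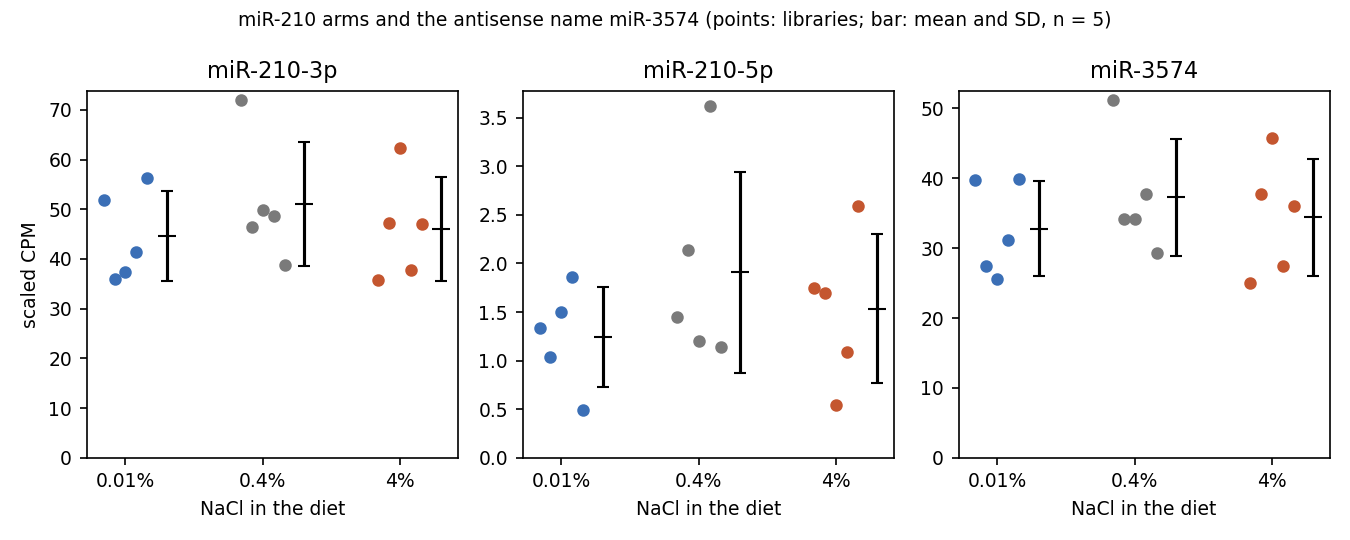
Level of miR-210-3p, miR-210-5p and the antisense name miR-3574 in scaled CPM (vertical axes, from 0, a different scale in each panel) by NaCl content of the diet (horizontal axes). Points are libraries and bars the mean and SD of 5 libraries. The 3 diets overlap in every panel, and miR-210-3p runs from 35.9 to 72.1 scaled CPM.

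In the comparison of the salt-deficient diet with 0.4% NaCl, the edgeR quasi-likelihood test across all 519 names called 87 names, 16.8% of those tested (7.71% higher and 9.06% lower), and neither arm of miR-210 was among them. The 40 higher and 47 lower names were 25 and 79 with library totals only in place of TMM, a scaling that shifted the median of all names by -0.19 in log2. The log2 fold change of miR-210-3p was -0.20 ± 0.20 (SE; 95% interval -0.61 to 0.22; Benjamini-Hochberg adjusted p = 0.521). This interval allows a level on 0.01% NaCl between 0.654 and 1.16 times that on 0.4%. Of the 5 low-salt libraries, 2 lay below all of the 0.4% diet, 3 lay within its range and none lay above it. Without library 1 of the 0.4% diet the log2 fold change was -0.059.

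Between 4% and 0.4% NaCl, no name was called (0 of 519, 0%; 27 had an unadjusted p under 0.05, and DESeq2 and limma-voom also called 0). The log2 fold change of miR-210-3p was -0.15 ± 0.20 (95% interval -0.56 to 0.27; edgeR adjusted p = 0.981). This interval allows a level on 4% NaCl between 0.676 and 1.2 times that on 0.4%. Without library 1 of the 0.4% diet, the highest of all 15, the value was 0.018. Between 0.01% and 4% NaCl, where 20.4% of names were called (7.32% higher and 13.1% lower; 38 and 68 names, and 14 and 117 with library totals only, which shifted the median by -0.24), it was -0.048 ± 0.20 (95% interval -0.46 to 0.37; edgeR adjusted p = 0.875). This interval allows a ratio between 0.725 and 1.29. All 5 low-salt libraries lay within the range of the 4% diet, and without library 3 of the 4% diet the value was 0.060.

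The joint edgeR test of any difference between the 3 diets called 16.4% of names and did not call miR-210-3p (adjusted p = 0.74). A slope over the diet order called 15.6% of names (10% rising and 5.59% falling with salt), and for miR-210-3p it was 0.024 ± 0.10 log2 units per step (edgeR adjusted p = 0.88). The authors' deposited tables hold the same comparisons from DESeq, DESeq2 and edgeR, with the opposite sign. Turned to the direction used here, the authors' deposited tables give miR-210-3p log2 fold changes of -0.20, -0.17 and -0.17 for 0.01% minus 0.4% NaCl, with adjusted p of 0.856, 0.63 and 0.603. For 4% minus 0.4% NaCl the authors' deposited tables give -0.17, -0.11 and -0.18, with adjusted p of 1, 0.992 and 0.966.

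**Figure D2:**
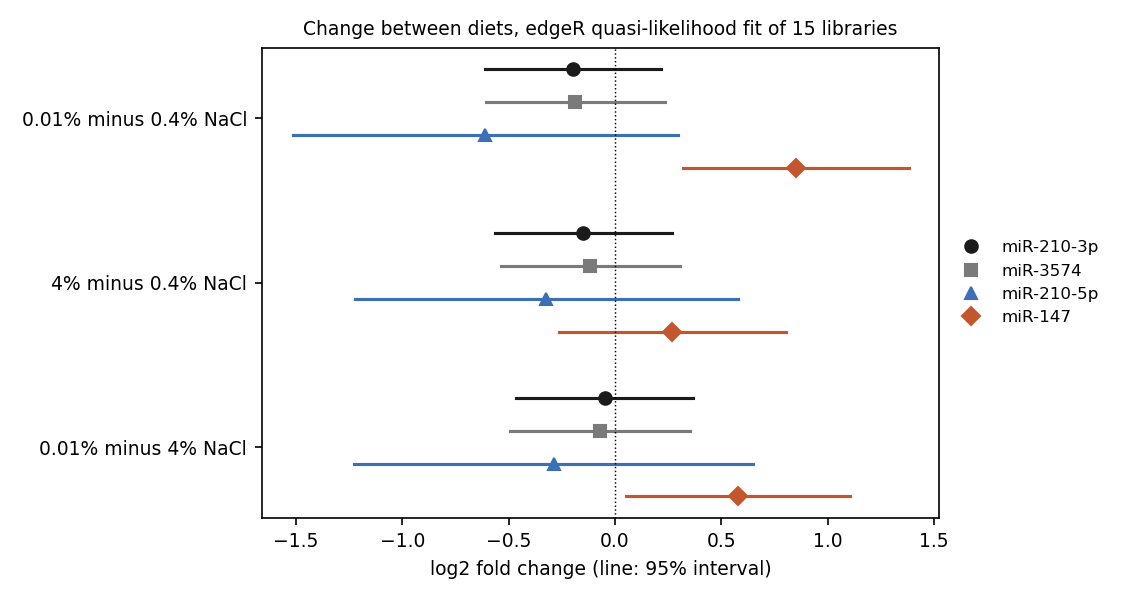
Log2 fold change (horizontal axis) of miR-210-3p, miR-3574, miR-210-5p and miR-147 in the 3 diet comparisons, with lines for the 95% interval from the edgeR fit of 15 libraries. The intervals of both miR-210 arms and of miR-3574 cross 0 in every comparison. That of miR-147, which shares 6 seed bases with miR-210-3p, lies above 0 for 0.01% minus 0.4% NaCl, at 0.85.

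miR-210-5p, the passenger arm, was close to the limit of detection in every library. It was counted 134 times in all, with 7, 6, 9, 12 and 3 reads on 0.01% NaCl. The libraries of the 0.4% diet held 8, 16, 6, 20 and 7 reads of miR-210-5p. Those of the 4% diet held 10, 10, 3, 5 and 12 reads. The 0.4% diet held both libraries above 12 reads, and the 3 sets overlapped.

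Mean levels of miR-210-5p were 1.24 ± 0.516 scaled CPM on 0.01% NaCl, 1.91 ± 1.04 on 0.4% and 1.53 ± 0.768 on 4% (SD, n = 5 each), the same order as for the 3p arm. Within diets its coefficient of variation was 41.4% to 54.3%, and counting error alone gives 33.1% to 40.9%. The log2 fold changes were -0.61 ± 0.43 for 0.01% minus 0.4% NaCl (95% interval -1.52 to 0.30; edgeR adjusted p = 0.352), -0.32 ± 0.42 for 4% minus 0.4% (-1.22 to 0.58; 0.981) and -0.29 ± 0.44 for 0.01% minus 4% (-1.23 to 0.65; 0.702). These intervals allow ratios of the 5p arm from 0.35 to 1.23, 0.429 to 1.49 and 0.428 to 1.57. They reach 0.91, 0.90 and 0.94 log2 units to either side of the estimates. They are not limits of detection, and the smallest difference that could have been called was not computed. Without library 4 of the 0.4% diet, which held 20 reads, the value for 4% minus 0.4% NaCl was 0.031 and that for 0.01% minus 0.4% was -0.28. The value for 0.01% minus 4% NaCl was -0.10 without library 5 and -0.49 without library 4 of the 0.01% diet, and -0.53 without library 3 and -0.029 without library 5 of the 4% diet. The joint test (edgeR adjusted p = 0.573) and the slope over diets (0.14 ± 0.23; edgeR adjusted p = 0.726) did not call it.

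Nearly all reads counted under the 2 miR-210 names were those of the 3p arm in every library. Over the 15 libraries the 5p arm gave 134 of 4167 reads of both arms, 3.22% (exact Clopper-Pearson 95% interval 2.7% to 3.8%, counting error only), or 30.1 reads of 3p for each of 5p. By diet the pooled share of 5p was 2.74% (1.93% to 3.75%) on 0.01% NaCl, 3.66% (2.78% to 4.72%) on 0.4% and 3.18% (2.28% to 4.3%) on 4%. The arms have the same length and the same number of G and C bases (14 of 22), but how well each was captured by the adapters was not measured. The ratio therefore describes these libraries and not the arms' abundance in the cell. It also leaves out the 2973 reads counted under miR-3574, a name uncertain as separate from miR-210-3p. The share with those reads added was not computed.

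Single libraries ranged more widely in the share of the 5p arm. Library 5 of the 0.01% diet (0.865%; 0.179% to 2.51%) and library 3 of the 4% diet (0.87%; 0.18% to 2.52%), with 3 reads of 5p each, were the lowest. Library 4 of the 0.4% diet was the highest (6.94%; 4.29% to 10.5%), and its interval did not meet either of theirs. As a ratio within a library needs no scaling factor, the mean log2 ratio of 3p to 5p was compared between diets by an exact two-sided permutation test over all splits of 10 libraries. It was 5.16 ± 0.875 on 0.01% NaCl, 4.78 ± 0.734 on 0.4% and 4.95 ± 0.99 on 4% (SD, n = 5 each). The differences were 0.38 for 0.01% minus 0.4%, 0.17 for 4% minus 0.4% and 0.21 for 0.01% minus 4% (exact permutation p = 0.492, 0.786 and 0.643; adjusted p = 0.786 for each; the smallest possible p is 0.00794).

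**Figure D3:**
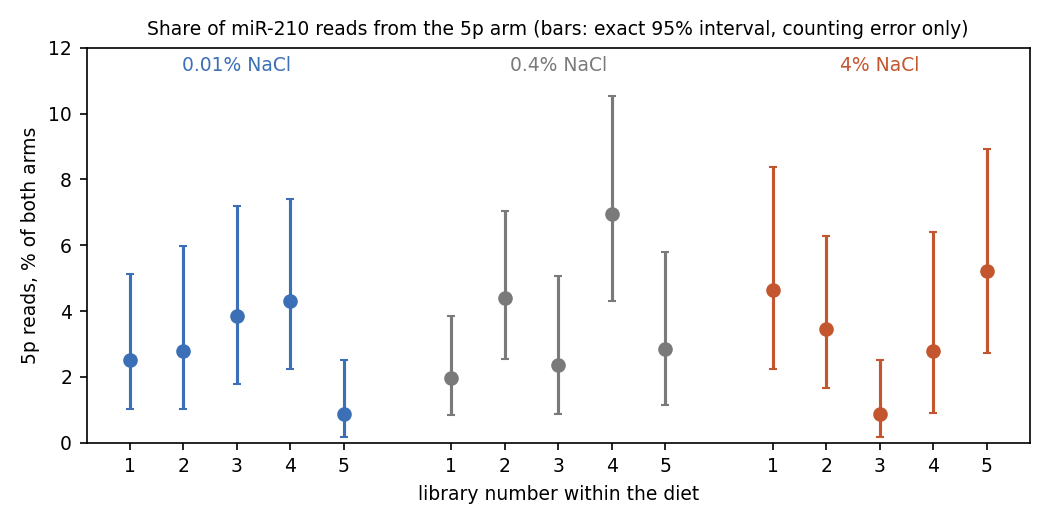
Share of miR-210 reads that came from the 5p arm (vertical axis, percent of the reads of both arms) in each of the 15 libraries (horizontal axis), with exact 95% intervals that cover counting error only. Shares run from 0.865% to 6.94%, and the 3 diets overlap.

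The 2 arms did not rise and fall together across libraries. Over the 15 libraries the correlation of their log2 scaled CPM was r = -0.24 (Spearman's rho -0.18), and -0.063 without the 2 libraries farthest from the median of miR-210-3p. It is given as a description, since all points share their library's scaling factor and the 5p arm rests on few reads.

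The counts of miR-3574, the reverse complement, followed those of miR-210-3p in every library. In library order as above, it had 39.8, 27.4, 25.6, 31.1 and 39.9 scaled CPM on 0.01% NaCl. It had 51.2, 34.2, 34.1, 37.7 and 29.3 scaled CPM on 0.4% NaCl. On 4% NaCl it had 25.01, 37.8, 45.7, 27.4 and 36.0 scaled CPM. In all 15 libraries miR-3574 was the scarcer, at 68.5% to 79.9% of the reads of miR-210-3p and at 73.7% over all.

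The log2 ratio of miR-3574 to miR-210-3p had an SD of 0.067 over the 15 libraries, below the 0.138 that counting error gives for 2 independent counts of this size. Across libraries the log2 levels correlated with r = 0.975 (rho 0.957; r = 0.957 without the 2 libraries farthest from the median), a description in which the points share library and scaling. The ratio did not pass a test of difference between any diets (differences of 0.0053, 0.022 and -0.017 in log2; exact permutation p = 0.897, 0.635 and 0.73; adjusted p = 0.897 for each). In the edgeR fit the log2 fold changes of miR-3574 were -0.19 ± 0.20, -0.12 ± 0.20 and -0.070 ± 0.20 in the 3 comparisons (adjusted p = 0.549, 0.981 and 0.836). Adding its reads to miR-210-3p, an alternative chosen after seeing the data, left every comparison of miR-210-3p uncalled.

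Other pairs of rat miRNAs that overlap by at least 16 bases on opposite strands also appear in the count table. There were 30 such pairs, and in 21 of them the larger name averaged 200 reads or more. In those 21 the smaller name held from 0.035% to 93.4% of the reads of the larger, with a median of 31.5%, and 9 pairs, miR-210-3p and miR-3574 included, were at 50% or more. Steady examples are miR-183-5p with miR-3553 (87.2%; SD of the log2 ratio 0.012) and miR-378a-5p with miR-3557-3p (86.1%; 0.033), the latter also exact reverse complements. miR-29a-3p with miR-3556a, at 0.035%, had the lowest share, but these 2 names overlap by 18 bases and are not exact reverse complements. The 5 of the 21 pairs that are exact reverse complements, miR-210-3p and miR-3574 included, ran from 22.1% to 89.7%.

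**Figure D4:**
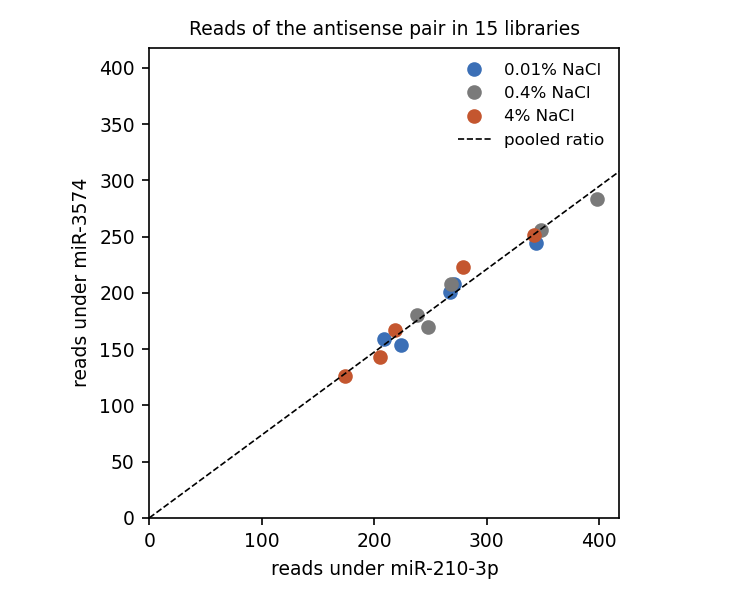
Reads counted under miR-3574 (vertical axis) against reads counted under miR-210-3p (horizontal axis) in the 15 libraries, coloured by diet, with a dashed line at the pooled ratio of 73.7%. Every library lies close to the line, between 68.5% and 79.9%.

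miR-147 is the 1 other rat miRNA of the RefSeq table that shares the 6 bases from 2 to 7 with miR-210-3p. It is known in mouse as a miRNA of activated macrophages, and is shown with those bases in capitals, as the part of the seed that the pair has in common.
rno-miR-147: gUGUGCGgaaaugcuucugcua
It is not a member, lies outside the naming rule of a shared 7-base seed and was named after its values had been seen. Its level was 12.997 ± 1.93 scaled CPM on 0.01% NaCl, 7.21 ± 2.13 on 0.4% and 8.66 ± 2.66 on 4% (SD, n = 5 each). The low-salt libraries held 10.5 to 15.2 scaled CPM and those of the 0.4% diet 4.89 to 10.3.

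The log2 fold change of miR-147 was 0.85 ± 0.25 for 0.01% minus 0.4% NaCl (edgeR adjusted p = 0.0267), and 0.58 ± 0.25 for 0.01% minus 4% (edgeR adjusted p = 0.105). Reads of miR-147 were 25.1% to 38.8% of those of miR-210-3p on 0.01% NaCl and 6.78% to 21.3% on 0.4%. These shares are a description, since miR-147 was picked with its values known. The miR-147 call was lost when library 1, 3 or 5 on 0.01% NaCl (edgeR adjusted p = 0.0587, 0.0657 and 0.0581) or 1 or 2 on 0.4% (0.0684 and 0.0666) was left out. It was also lost on library totals alone (0.113) and when the library richest in other-species reads was dropped from each diet (0.0783). Of 4 leukocyte miRNAs none passed in this comparison (median log2 fold change 0.34), and their part in the level of miR-147 was not tested.

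Of 19 further miRNAs linked to the hypoxia response, 4 were higher and 1 lower on 0.01% than on 0.4% NaCl, 26.3% of the list against 16.8% of all names tested, and with library totals only 3 were higher and 2 lower. Its members had a median log2 fold change of 0.27, beside -0.0027 for all 519 names. It holds 14 miRNAs reported to rise under low oxygen in cell studies and 5 reported to target HIF mRNAs, and it was drawn up with earlier results of these data known. Values were positive for 16 of the 19 and negative for 3, beside 256 positive and 263 negative among all 519 names. The 2 groups differed in this: 11 of the 14 reported to rise were positive, with a median of 0.17. All 5 reported to target HIF mRNAs were positive, with a median of 0.69. Both miR-210 arms had negative values in this comparison.

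Among the miRNAs reported to rise under low oxygen, miR-322-5p and miR-181c-5p were higher on 0.01% NaCl and miR-107-3p was lower, and 11 of 14 did not pass. miR-322-5p, of the miR-15 seed family, had 551 to 796 scaled CPM on 0.01% NaCl (median 658) and 332 to 487 on 0.4% (median 373). Its log2 fold change was 0.79 ± 0.17 (edgeR adjusted p = 0.00513). miR-181c-5p, reported in rat heart to act on a mitochondrial cytochrome oxidase mRNA, went from 1556 ± 329 to 2285 ± 304 scaled CPM (0.55 ± 0.14; edgeR adjusted p = 0.0117), and 4 of 5 low-salt libraries lay above all of the 0.4% diet. miR-107-3p went from 667 ± 56.6 to 521 ± 51.3 (-0.36 ± 0.11; edgeR adjusted p = 0.0391). Its sequence is nearly that of miR-103-3p (0.072 ± 0.084, not called), so reads may be split between them.

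Both called members of the HIF-targeting group were higher on 0.01% NaCl, and the other 3 of 5 did not pass. miR-199a-5p, a miRNA of stromal cells, had 569 to 968 scaled CPM on 0.01% NaCl (median 657) and 277 to 542 on 0.4% (median 443). Its log2 fold change was 0.71 ± 0.23 (edgeR adjusted p = 0.0405). miR-20b-5p, of the miR-17 seed family, was scarce, with 2.41 to 4.21 against 0.65 to 1.63 scaled CPM. These levels rest on 14 to 22 reads in a library on 0.01% NaCl and 4 to 9 on 0.4%. Its log2 fold change was 1.54 ± 0.37 (edgeR adjusted p = 0.00786). Smooth muscle and fibroblast miRNAs moved with this list: 2 of 3 rose and the summed level was 43241 to 74982 scaled CPM on 0.01% NaCl and 20625 to 37890 on 0.4%, and their part in these values was not tested. The 2 that rose were miR-143-3p (0.83; edgeR adjusted p = 0.00513) and miR-199a-3p (0.64; 0.0187), the latter from the same precursor as miR-199a-5p. Of 5 kidney tubule miRNAs 1 fell, miR-194-5p (-0.60; edgeR adjusted p = 0.00653), and miR-192-5p was at -0.45 (0.0911). Positive values were found for miR-204-5p, miR-200a-3p and miR-200b-3p (0.24, 0.088 and 0.036, with edgeR adjusted p = 0.0874, 0.585 and 0.807), and the list median was 0.036. The summed tubule level was 39866 to 59776 scaled CPM on 0.01% NaCl (median 46967) and 48451 to 75663 on 0.4% (median 69058), and its part was not tested. That sum was mostly miR-192-5p, with a mean of 51514 scaled CPM against 592 to 2204 for the other members. A difference between any of these changes and that of miR-210 was not tested either.

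The call of miR-107-3p was lost when library 1 or 3 (0.01% NaCl) or library 1, 2, 3 or 5 (0.4% NaCl) was left out (edgeR adjusted p = 0.0738, 0.09, 0.063, 0.0801, 0.0706 and 0.0518). It was lost as well with DESeq2 size factors, upper-quartile factors, no filter, only the 2 diets compared, without the 5 most abundant names and without the 3 libraries richest in other-species reads (0.0503 to 0.0641). For miR-199a-5p the same held for libraries 1, 2, 3 and 5 on 0.01% NaCl (0.0924, 0.056, 0.0657 and 0.12), 2, 4 and 5 on 0.4% (0.0749, 0.0704 and 0.122), and 1 and 2 on 4% (0.0576 and 0.0508), and also with library totals only (0.0838) and without those 3 libraries (0.107). miR-322-5p, miR-181c-5p and miR-20b-5p kept their calls in all 15 refits of this comparison without 1 library. The count of 5 called members was 3 when library 1 or 3 (0.01% NaCl) or 2 or 5 (0.4% NaCl) was left out. Calls among all names ran from 69 to 107 over the refits without 1 library.

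**Figure D5:**
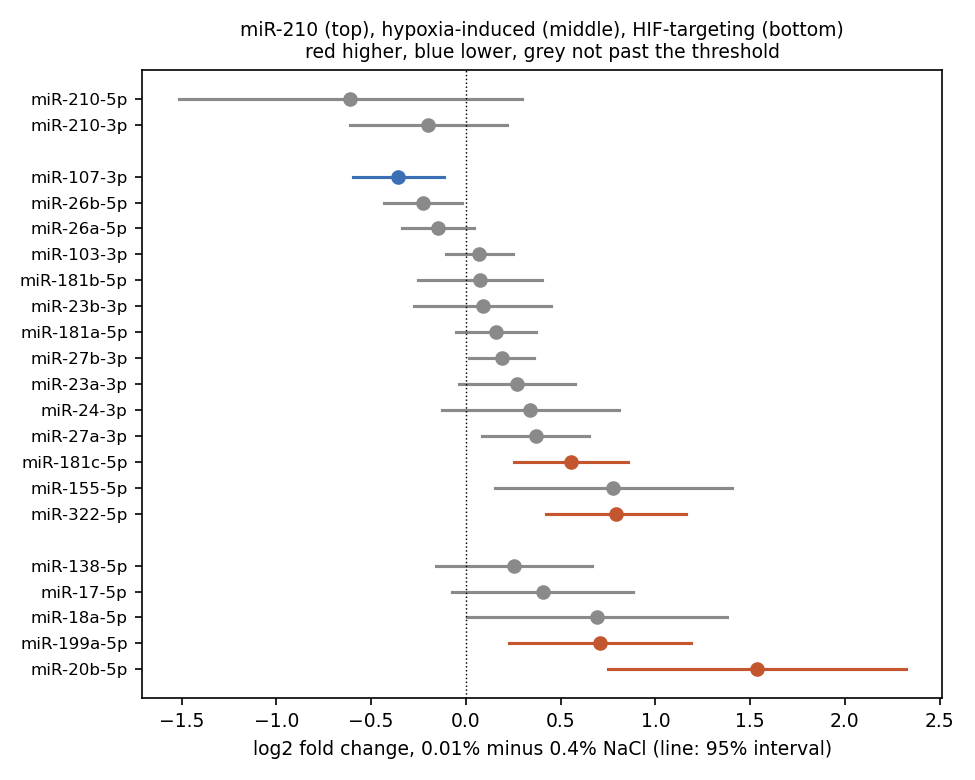
Log2 fold change for 0.01% minus 0.4% NaCl (horizontal axis, lines for the 95% interval) of the 2 miR-210 arms, 14 miRNAs reported to rise under low oxygen and 5 reported to target HIF mRNAs. Both miR-210 arms lie below 0 with intervals that cross it, and 4 of the other 19 are higher and 1 is lower at an edgeR adjusted p under 0.05 (3 and 2 with library totals only).

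Between 0.01% and 4% NaCl, 2 of the 19 hypoxia-linked miRNAs were higher and 1 lower, 15.8% of the list against 20.4% of all names, with a median of 0.23 beside -0.0099 for all names. With library totals only 0 were higher and 3 lower (14 and 117 of all 519 names), and with DESeq2 5 were higher and 0 lower (55 and 71 of 600). miR-181c-5p (0.55 ± 0.14; edgeR adjusted p = 0.0146) and miR-322-5p (0.57 ± 0.17; 0.0285) were the higher ones and miR-26a-5p (-0.30 ± 0.090; 0.0282), an abundant miRNA that restrains proliferation, the lower. With library totals only miR-181c-5p (adjusted p = 0.0635) and miR-322-5p (0.25) lost their calls. Single markers of other cell types were called in this comparison too, and the tubule and leukocyte lists held values of both signs. miR-143-3p of smooth muscle rose (1.01; edgeR adjusted p = 0.00281), 1 of 3 listed. miR-194-5p of the tubule (-0.50; 0.0201) and miR-150-5p of leukocytes (-1.11; 0.0247) fell, 1 of 5 and 1 of 4 listed. Among uncalled tubule and leukocyte markers, miR-192-5p (-0.20) and miR-142-5p (-0.21) had negative values and the others positive ones. The uncalled smooth muscle and fibroblast markers, miR-199a-3p (0.35) and miR-145-5p (0.28), both had positive values. List medians were 0.35 for smooth muscle and fibroblasts, 0.064 for tubule and -0.061 for leukocytes. The summed levels on 0.01% and 4% NaCl were 43241 to 74982 and 25352 to 31924 scaled CPM for smooth muscle and fibroblasts, 39866 to 59776 and 46622 to 81823.5 for tubule, and 1774 to 2294 and 1547 to 4345 for leukocytes, and their part was not tested. This comparison and the previous one share their 0.01% libraries. The call of miR-322-5p was lost when library 1, 3 or 5 (0.01% NaCl) or 3 (4% NaCl) was left out (edgeR adjusted p = 0.0612, 0.0852, 0.0765 and 0.0608), and that of miR-26a-5p without library 2, 3 or 5 of the 4% diet (0.0792, 0.0547 and 0.0655). miR-26a-5p also lost its call with DESeq2 size factors (0.0636), DESeq2 (0.0578), only the 2 diets compared (0.0656) and without the 3 libraries richest in other-species reads (0.058). The count of 3 was 1 without library 3 of the 4% diet and 5 without library 4 of the 0.01% diet. Calls among all names ran from 74 to 123 over the refits without 1 library. Between 4% and 0.4% NaCl the edgeR test called 0 of the 19 (0% of all names), with a median of 0.0089.

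Across the 15 libraries the names whose levels most resembled that of miR-210-3p were compared among 194 other rat names that averaged 200 reads or more. They were miR-183-5p (Pearson's r = 0.808; Spearman's rho 0.861; r = 0.687 without the 2 libraries farthest from the median), its antisense name miR-3553 (0.805; 0.857; 0.684), miR-326-3p (0.775; 0.739; 0.693), miR-182 (0.764; 0.736; 0.59) and miR-365-3p (0.754; 0.65; 0.65). The median r over the 194 names was 0.057 and the lowest -0.753. These values are a description of 15 points that share library and scaling, and the highest of 194 values are large by selection.

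miR-183-5p and miR-182 come from 1 cluster best known from sensory epithelia. None of these 5 names was called in any diet comparison. After each diet's mean was taken off, r was 0.836 for miR-183-5p and 0.907 for miR-326-3p. Among the other names of any species that averaged 200 reads or more, the log2 ratio to miR-210-3p had its smallest SD, 0.22, for miR-101b-3p, above the 0.067 of miR-3574.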

How the data were processed

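The authors deposited raw read counts of 600 miRNA names (445 rat, 155 named for other species) in 15 libraries. Further deposited tables hold the authors' comparisons between diets as log2 values and p-values, per the file headers, and 90 columns of library counts in them were left unused. The kit was TruSeq small RNA, per the labels' protocols, and cutadapt, Bowtie and DESeq are named in the submitters' processing notes. For versions, genome build, miRNA database, strand and multiple matches, the rule is not given in the sources used here.

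Samples were grouped by diet. The labels number no replicates, so library numbers only name libraries. Within diets all 30 pairs of libraries differed by more than counting error (chi-square per degree of freedom of at least 31.0), and each library was counted singly.

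Counts were fitted with edgeR 4.0.16 in R 4.3.3: filterByExpr, TMM, robust dispersions, 1 quasi-likelihood fit of 3 diet means, and Benjamini-Hochberg adjustment over 519 names, with calls at an adjusted p under 0.05. The script was tested on simulated data. The arm ratio used an offset of 0.5 reads. Alternatives were DESeq2 1.42.0, limma-voom (limma 3.58.1), other scalings, filters and sets of names, and each library left out. RNAfold 2.7.2 folded the hairpin. Members, lists and the naming rule (both arms; called members of the hypoxia list; the 5 most similar rat names; all names that share a 7-base seed) were chosen with earlier results of these data known. Intervals on reads cover counting error only.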

Additional observations from a re-analysis of the deposited data

How the results depend on the processing

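Neither arm of miR-210 nor their ratio passed the threshold in any of 301 recomputed values, and the smallest adjusted p was 0.124, for miR-210-3p with library totals only in 0.01% minus 0.4% NaCl. That scaling shifted the median of all names by -0.19 in this comparison and by -0.24 in 0.01% minus 4%. No paired analysis was possible because the labels number no replicates. miR-210-5p, under a mean of 10 CPM, could not be tested where only names above that level entered. The cause of the changes below was not tested.

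Of the 301 values 10 changed sign, none of them called in any fit. With no filter miR-210-3p was 0.0022 in 0.01% minus 4% NaCl and its slope -0.0011. In refits without 1 library, miR-210-3p ran from -0.31 to -0.059 in 0.01% minus 0.4% NaCl, from -0.27 to 0.018 in 4% minus 0.4%, from -0.17 to 0.060 in 0.01% minus 4% and from -0.019 to 0.083 for the slope. miR-210-5p ran from -0.58 to 0.031 in 4% minus 0.4%, and miR-3574 from -0.23 to 0.036 there and from -0.19 to 0.030 in 0.01% minus 4%. The log2 arm ratio ran from 0.011 to 0.57, from -0.25 to 0.37 and from -0.16 to 0.62 in these 3 comparisons.

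The 87 of 519 names called in 0.01% minus 0.4% NaCl were 55 of 339 with the 10 CPM filter. They were 69 to 107 without 1 library. Hypoxia-linked calls there were 3 of 19 (beside 69 of all 521 names) with the 3 libraries left out that held most other-species reads, 1 from each diet. Without 1 library they were 3 to 6, beside 69 to 107 of all names. In 0.01% minus 4% NaCl they were 5 with no filter, with the 10 CPM filter and with DESeq2, and 1 to 5 without 1 library.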
